A study of Mus musculus with 6 samples.

Results

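The comparison set mouse T follicular helper (Tfh) cells of the sorted population labelled Tfh4 against the population labelled Tfh21. It used 4 of the 6 libraries of an ATAC-seq study. In ATAC-seq, a transposase inserts sequencing adaptors where DNA is accessible, so that reads pile up in open chromatin. The members were taken from the labels: KO Tfh4 and WT Tfh4 on one side, KO Tfh21 and WT Tfh21 on the other, with 1 library each. KO mice lacked Stat6 and WT mice had it intact. All mice were untreated and of strain C57BL/6. Cells of 10 mice per genotype were sorted by flow cytometry, and 50000 cells went into a library. The remaining libraries, KO Tfh214 and WT Tfh214, entered only where they are named. The tissue, the sex and age of the mice, the gates and the part of Stat6 that the KO allele lacks were not given in the sources used here. Genes that define Tfh and T cells (Bcl6, Cxcr5, Pdcd1, Icos, Cd3e, Cd4) had reads in every library. So did the B cell gene Ebf1, so that the presence of reads does not tell the cell type.

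Tfh cells are CD4+ T cells that help B cells in the follicles and germinal centres of lymphoid organs. They do so through contact, by CD40 ligand and ICOS, and through cytokines. IL-21 drives germinal centre B cells and plasma cells, and IL-4 directs class switching to IgG1 and IgE. The transcription factor Bcl6 sets up the Tfh program, with Maf acting on both cytokine genes. STAT6, the factor activated by the IL-4 receptor, turns on Gata3 in T helper 2 (Th2) cells.

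The Tfh4 libraries held 1238585 (KO) and 1373218 (WT) reads in peaks, and the Tfh21 libraries 1051120 (KO) and 1122701 (WT). Values are reads scaled to the total in peaks of each library (CPM) over a common list of 282898 peaks, of which the median peak held 14 reads over the 6 libraries. Ratios are CPM in Tfh4 over CPM in Tfh21 with reads pooled over genotypes, and each carries an exact binomial 95% interval that covers counting error only. Nothing says that a second library of any group was made, so no interval covers the spread between animals or libraries.

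By their ratios, Il4, the gene of the cytokine IL-4, lay higher in Tfh4 on few reads, and Il21, the gene of IL-21, lay lower there. Il4 held 6 reads in KO Tfh4 and 10 in WT Tfh4, against 2 in KO Tfh21 and 2 in WT Tfh21. Its ratio was 3.33 (1.07 to 13.7), with 2.55 in KO and 4.09 in WT. Both Tfh4 libraries lay above both Tfh21 libraries, on 20 reads in all. Il4 thus fell short of the minimum of 40 reads in the higher population used below for measured genes, and the model below did not test it. Within a single genotype the interval included 1. Both Il4 peaks lay at start sites on chromosome 11 (mm9): chr11:53430745-53430999, at the start of a shorter non-coding transcript, held 5 and 7 reads in KO and WT Tfh4 against 2 and 1 in KO and WT Tfh21. The peak at chr11:53431680-53432106, beside the start of the coding transcript, held 1 and 3 reads in KO and WT Tfh4 against 0 and 1 in KO and WT Tfh21.

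Il21 held 26 reads in KO Tfh4 and 27 in WT Tfh4, against 34 in KO Tfh21 and 35 in WT Tfh21. Its ratio was 0.639 (0.438 to 0.928), with 0.649 in KO and 0.631 in WT, so the genotypes gave nearly the same value. No difference was detectable at the start of the gene at this depth. The 2 start-site peaks of Il21 together held 13 and 18 reads in KO and WT Tfh4 against 11 and 14 in KO and WT Tfh21, a ratio of 1.03 (0.590 to 1.82), and the stronger of them alone gave 0.832. The 7 peaks in introns 2 and 3 held 13 and 9 reads in KO and WT Tfh4 against 23 and 21 in KO and WT Tfh21, a ratio of 0.416 (0.238 to 0.709). In those intronic peaks the interval stayed below 1 within KO (0.223 to 0.987) and within WT (0.141 to 0.798), and the pooled value was 0.449 with median-of-ratios scaling, which sets the median gene to no change. With that scaling the ratio over all Il21 peaks was 0.689, and its interval (0.472 to 1) reached 1.

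The promoters of these cytokine genes are shown because the study removes STAT6, and the data bear on their start sites. Each run below is the 250 bases before a start site of the RefSeq promoter table (GRCm38.p6, minus strand, 5′ to 3′). Capitals mark matches, on either strand, to the STAT6 consensus TTCNNNNGAA, the NFAT core GGAAAA or the CCAAT box. NFAT is the factor activated by calcium after T cell receptor contact. Searched as well, without a match in the promoters shown, were AGATAA for GATA factors, TGANTCA for AP-1 and TATAAA. Enox2, a cell-surface NADH oxidase gene on chromosome X, is added as a start site lower in Tfh4 whose promoter held the STAT6 consensus, and it was chosen after its values were seen.
Il4, upstream start: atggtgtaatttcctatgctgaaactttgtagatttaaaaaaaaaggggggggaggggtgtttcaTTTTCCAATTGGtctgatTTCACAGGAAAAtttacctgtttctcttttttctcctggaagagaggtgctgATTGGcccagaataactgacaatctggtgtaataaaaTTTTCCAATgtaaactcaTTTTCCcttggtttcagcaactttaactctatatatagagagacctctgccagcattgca
Il4, inner start: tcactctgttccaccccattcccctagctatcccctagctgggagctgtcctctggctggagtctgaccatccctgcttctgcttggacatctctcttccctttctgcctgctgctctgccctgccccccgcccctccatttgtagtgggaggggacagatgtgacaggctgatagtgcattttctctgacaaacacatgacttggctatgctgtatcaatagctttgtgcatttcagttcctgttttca
Il21: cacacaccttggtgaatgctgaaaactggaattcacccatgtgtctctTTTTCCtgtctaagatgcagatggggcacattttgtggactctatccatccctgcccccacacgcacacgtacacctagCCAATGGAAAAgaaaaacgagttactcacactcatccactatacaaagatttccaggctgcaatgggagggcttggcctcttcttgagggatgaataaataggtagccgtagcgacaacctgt
Enox2: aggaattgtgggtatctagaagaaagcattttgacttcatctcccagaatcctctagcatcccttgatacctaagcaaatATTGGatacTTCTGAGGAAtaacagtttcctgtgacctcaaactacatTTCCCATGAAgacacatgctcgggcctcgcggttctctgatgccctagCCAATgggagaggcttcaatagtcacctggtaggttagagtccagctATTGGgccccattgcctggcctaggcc
The upstream Il4 promoter held 1 STAT6, 4 NFAT and 4 CCAAT matches, several of them overlapping, and the inner one held none. Il21 held 2 NFAT matches and 1 CCAAT match, which lies directly beside an NFAT match. Enox2 held 2 STAT6 and 3 CCAAT matches. Of the 32851 promoters in that table, 5.85% held the STAT6 consensus, 20.4% the NFAT core and 33.8% CCAAT, against 9.99% for AGATAA, 6.75% for TGANTCA and 12.4% for TATAAA. A match is a run of letters only, and binding was not measured.

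**Figure D1:**
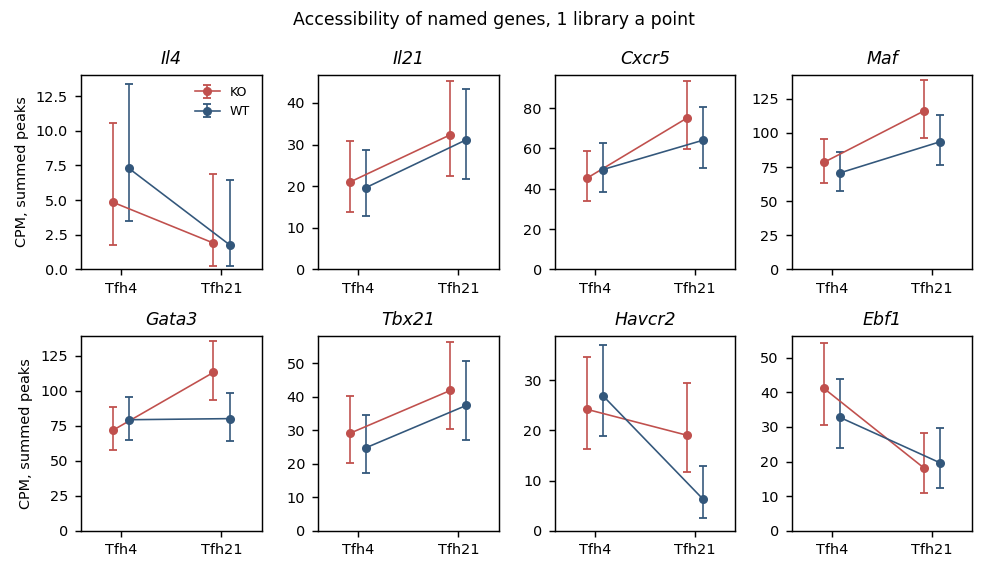
CPM summed over the peaks of 8 genes in Tfh4 (left) and Tfh21 (right), for KO (red) and WT (blue); each point is 1 library and the bars are exact Poisson 95% intervals on its reads. Il4, Havcr2 and Ebf1 were higher in Tfh4 in both genotypes, while Il21, Cxcr5, Maf and Tbx21 were lower; Gata3 was lower in KO and near level in WT.

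Intervals below 1 outside start sites were also seen at single genes of the T helper 1 (Th1) and effector lists, but not at most of their members. Outside start sites 1 of 7 measured Th1 genes (Tbx21) had an interval below 1, with a median ratio of 0.925, and 3 of 8 effector and egress genes did (Ccr7, Klf2 and Prdm1), with a median of 0.862. Tbx21 encodes T-bet, the main Th1 regulator. Its 7 peaks outside the start held 25 and 14 reads in KO and WT Tfh4 against 36 and 34 in KO and WT Tfh21, a ratio of 0.464 (0.305 to 0.696). Its start-site peaks gave 1.61 (0.856 to 3.16), with an interval that included 1. Ifng, the interferon gamma gene, gave 0.517 (0.270 to 0.962) outside its start. Its start-site peak gave 1.04 (0.370 to 3.03), with the genotypes opposite on few reads: 8 and 2 in KO and WT Tfh4 against 2 and 6 in KO and WT Tfh21. Prdm1, which encodes Blimp-1, the repressor that opposes Bcl6, gave 0.695 (0.528 to 0.912) on 9 peaks outside its start and 1.1 (0.740 to 1.66) at it. At single peaks, an intron 1 peak of Tbx21 (chr11:96974055-96974472) held 3 and 5 reads in KO and WT Tfh4 against 9 and 12 in KO and WT Tfh21.

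These values outside start sites lay on the low side of all genes. Of 6341 genes with at least 40 reads outside start sites in the higher population, 4.16% had an interval below 1 and 16.1% an interval above 1, and the median ratio was 1.11. Ifng had fewer reads than that minimum. At start sites it was the reverse: 17.1% of 7505 genes had an interval below 1, 0.04% an interval above 1, and the median ratio was 0.832. This split into start-site and other peaks was made after the data had been examined.

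**Figure D2:**
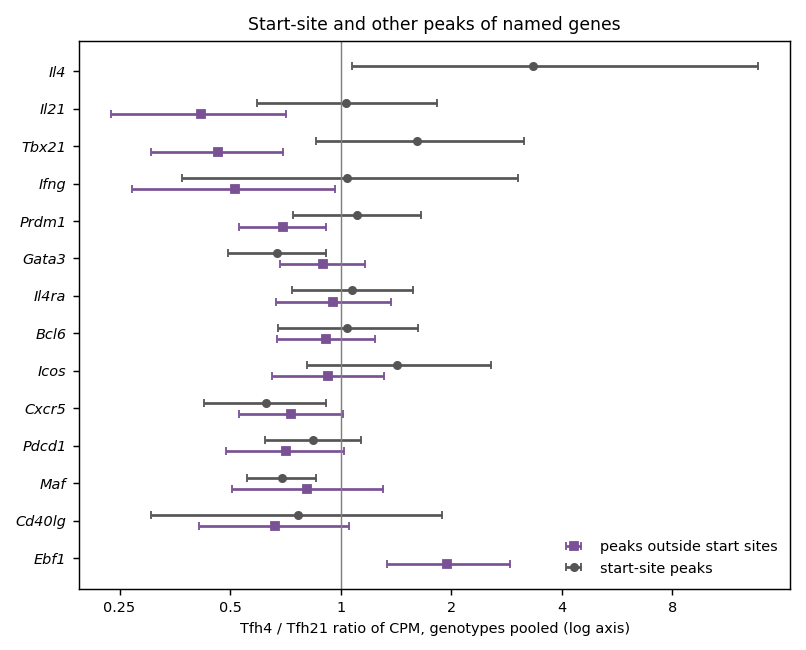
Ratio of CPM in Tfh4 over Tfh21, genotypes pooled, for peaks outside start sites (purple squares) and start-site peaks (grey circles) of named genes other than Il13 and Il5, on a log axis with exact binomial 95% intervals. Il21, Tbx21, Ifng and Prdm1 had intervals below 1 outside their start sites and not at them; Cxcr5, Maf and Gata3 had intervals below 1 at the start site.

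The group of Tfh identity genes lay lower in Tfh4, as did widely used genes, and no measured Tfh gene was higher in both genotypes. Of 26 listed genes 23 were measured (at least 40 reads in the higher population), 18 of them were lower in both KO and WT, and 13 had an interval below 1, as 1172 of all 11718 measured genes and 5 of 15 widely used genes did. The median log2 ratio of the list, on CPM + 1 here and wherever a log2 ratio is given, was -0.30, with -0.33 in KO and -0.19 in WT, beside -0.10 for all measured genes, of which 41.7% were lower in both genotypes. With median-of-ratios scaling the list stood at -0.20 and all genes at 0.01. Widely used genes were as low, at -0.31 as deposited and -0.20 with that scaling, so the median of the list was not particular to Tfh genes. At 1.5-fold with the same direction in both genotypes, 1 member (Il21) was lower and 0 were higher, and 2.0% of all measured genes were lower by that rule.

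Cxcr5, the receptor that brings Tfh cells into follicles, held 56 and 68 reads in KO and WT Tfh4 against 79 and 72 in KO and WT Tfh21. Both Tfh4 values in CPM lay below both Tfh21 values, and the ratio was 0.684 (0.535 to 0.873). Maf stood at 0.711 (0.584 to 0.865) on 97 and 97 reads in KO and WT Tfh4 against 122 and 105 in KO and WT Tfh21. Slamf6, a homotypic adhesion receptor of T and B cell contacts, stood at 0.686 (0.499 to 0.942). Btla, an inhibitory receptor, was at 0.738 (0.617 to 0.883), and Cd200, a ligand that restrains myeloid cells, at 0.698 (0.515 to 0.944). Cd40lg, the CD40 ligand gene, gave 0.684 (0.453 to 1.03) on 46 reads in Tfh4 against 56 in Tfh21, and Pdcd1, which encodes PD-1, gave 0.785 (0.623 to 0.988). Bcl6 (0.953, 0.744 to 1.22) and Icos (1.05, 0.780 to 1.4) had intervals that included 1.

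The peaks outside start sites gave the same picture. For 21 Tfh genes measured outside their start sites, 8 had an interval below 1, 0 an interval above 1, and the median ratio was 0.823. Pou2af1, which encodes the coactivator OCA-B, gave 0.587 (0.408 to 0.839) there on 30 and 25 reads in KO and WT Tfh4 against 42 and 36 in KO and WT Tfh21. Slamf6 gave 0.645 (0.464 to 0.894), and Tcf7, the TCF-1 gene, gave 0.718 (0.600 to 0.859). These genes have strong peaks, and strong peaks as a whole were lower in Tfh4, so the same was asked of peaks with at least 8 CPM in the Tfh214 libraries, which the comparison does not use. The 39 such peaks of 19 Tfh genes outside start sites had a median log2 ratio of -0.48, against -0.26 for 3530 peaks of that strength over all genes. Of the 39, 28 (71.8%) were lower in both genotypes, against 55.2% of the 3530. An interval below 1 was found for 23.1% of the 39, against 9.66% of the 3530. At start sites the medians lay nearer together, at -0.34 for 20 Tfh peaks against -0.26 for 8825. Other T cell lists had fewer such peaks outside start sites, and some lay as low: the median was -0.67 on 4 peaks of effector and egress genes, -0.47 on 7 of the IL-4 signalling list and -0.47 on 6 of coinhibitory receptors, against -0.22 on 21 of T cell receptor core genes and -0.20 on 10 of TCR-induced factors.

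Among single Tfh peaks, one in intron 3 of Tox2, which encodes a DNA-binding protein of the Tfh program, lay at chr2:163124556-163124993. It held 8 and 7 reads in KO and WT Tfh4 against 16 and 16 in KO and WT Tfh21, a ratio of 0.390 (0.196 to 0.742). An intron 1 peak of Icos (chr1:61047112-61047519) held 9 and 4 reads in KO and WT Tfh4 against 14 and 12 in KO and WT Tfh21, at 0.416 (0.196 to 0.840), while its start-site peak gave 1.43 (0.811 to 2.57). A pair of intron 2 peaks of Tcf7 gave 0.516 (0.319 to 0.824) and 0.536 (0.324 to 0.874). An intron 3 peak of Lef1, a relative of Tcf7, gave 0.590 (0.404 to 0.856). In each of these intronic peaks the KO and the WT ratio were both below 1, and the peaks were picked for their size after the values were seen.

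Gata3, the Th2 regulator, split by peak and by genotype. Over its 17 peaks it held 89 and 109 reads in KO and WT Tfh4 against 119 and 90 in KO and WT Tfh21. The pooled ratio was 0.789 (0.646 to 0.962), made of 0.635 in KO and 0.990 in WT. A peak just upstream of the Gata3 start (chr2:9801202-9801518) was named for its size, by a rule that requires the same direction in both genotypes. It held 10 and 10 reads in KO and WT Tfh4 against 22 and 21 in KO and WT Tfh21, a ratio of 0.387 (0.216 to 0.673). With median-of-ratios scaling, here with factors taken over peaks, the ratio was 0.471 (0.263 to 0.818), and the interval within each genotype included 1. Il13 and Il5 are neighbours of Il4. Il13 held 4 and 11 reads in KO and WT Tfh4 against 9 and 6 in KO and WT Tfh21, a ratio of 0.832 (0.379 to 1.83) with the genotypes on opposite sides of 1. Il5 held 10 in Tfh4 and 5 in Tfh21, a ratio of 1.67 (0.518 to 6.21). Il4ra, the IL-4 receptor gene, stood at 1.01 (0.781 to 1.31). The Th2 list had 7 measured genes of 15 and a median of -0.12, with 0 past 1.5-fold.

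Among the other lists of T cell genes, those of IL-4 receptor, STAT and SOCS signalling had a median of -0.16 on 17 measured genes. The median was -0.06 on 7 Th1 genes, -0.12 on 5 regulatory T cell genes and -0.21 on 10 effector genes, and none of these genes passed 1.5-fold. The Th1 median was on the other side of 0, at 0.05, with median-of-ratios scaling. TCR-induced factors had a median of -0.25, with 10 of 12 lower in both genotypes. So were 41.7% of all measured genes and 11 of 15 widely used genes. Among the TCR-induced factors Fos, an AP-1 subunit, was lower by the 1.5-fold rule at 0.632 (0.483 to 0.825). Core genes of the T cell receptor had a median of -0.21 on 12 genes and 0 past 1.5-fold. Promoters of widely used genes were as low as the Tfh genes, at -0.31 on 15 genes with 0 past 1.5-fold.

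Havcr2 ran against the other coinhibitory receptors. This gene encodes TIM-3, a receptor of chronically stimulated T cells and of myeloid cells. It held 30 and 37 reads in KO and WT Tfh4 against 20 and 7 in KO and WT Tfh21, a ratio of 2.07 (1.3 to 3.36). The genotypes gave unequal sizes, 1.27 in KO and 4.32 in WT, with WT Tfh21 the lowest library. The other 5 measured members were lower in both genotypes, as were 41.7% of all measured genes. Tigit, the gene of an inhibitory receptor for CD155, stood at 0.676 (0.536 to 0.851), and Ctla4 at 0.676 (0.495 to 0.921). The median of the 6 was -0.39.

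As a list, genes of the B cell lineage lay higher in Tfh4. Of 16 listed genes 8 were measured, with a median log2 ratio of 0.50. Of the 8, 6 were higher in both genotypes, against 19.95% of all measured genes, and 4 were higher at 1.5-fold. That rule was passed by 4.16% of all measured genes, and by 12.1% of those whose strongest peak held 10 to 25% of their reads. At 8 CPM or more in the Tfh214 libraries the list had 1 peak outside start sites, at a log2 ratio of -0.22. It had 2 such start-site peaks, with a median of 0.10. Ebf1, a regulator of early B cell fate, held 51 and 45 reads in KO and WT Tfh4 against 19 and 22 in KO and WT Tfh21, a ratio of 1.95 (1.34 to 2.88). Blnk, an adaptor of the B cell receptor, stood at 2.18 (1.37 to 3.57), Fcer2a, the CD23 gene, at 1.77 (1.06 to 3.05), and Bank1, a B cell scaffold gene, at 1.56 (1.23 to 2.0). In all 4 genes both Tfh4 libraries lay above both Tfh21 libraries. The reads of Ebf1 were spread over 18 peaks, and its highest peak alone gave 1.33 (0.384 to 5.17), with 2.12 in KO and 0.818 in WT; that of Bank1 was below 1 in WT as well, at 0.954. Of the defining markers, Pax5 gave 1.0 (0.810 to 1.25), made of 0.757 in KO and 1.21 in WT. Cd79b held 6 and 6 reads in KO and WT Tfh4 against 2 and 3 in KO and WT Tfh21. The summed level of the list was 305.2 and 353.9 CPM in KO and WT Tfh4, against 227.4 and 265.4 CPM in KO and WT Tfh21, and no listed gene was at 0 in both libraries of a population. Outside start sites, 4 of 6 measured B cell genes had an interval above 1, against 16.1% of all genes. Blnk, Fcer2a and Ciita reached the minimum of reads for measured genes there through Tfh4 only. That minimum is easier to reach in Tfh4, whose libraries held more reads, and listed genes weak in both populations were left out. All genes were chosen by the same rule. How far it raised the counts of higher B cell genes was not tested. The part of B cells, or of any other cell type, in the results was not tested. In such libraries a smaller share of cells with open DNA and less open DNA in each cell cannot be told apart.

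Myeloid genes had 4 measured members of 10, with a median of 0.06. Csf1r, the receptor gene for the macrophage growth factor, was higher at 1.63 (0.965 to 2.82) by the 1.5-fold rule, although its interval included 1, and Cebpa was lower at 0.704 (0.528 to 0.936). None of the genes of CD8 T and NK cells was measured, and their sum was 37.1 and 29.9 CPM in KO and WT Tfh4, against 22.8 and 23.2 CPM in KO and WT Tfh21.

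**Figure D3:**
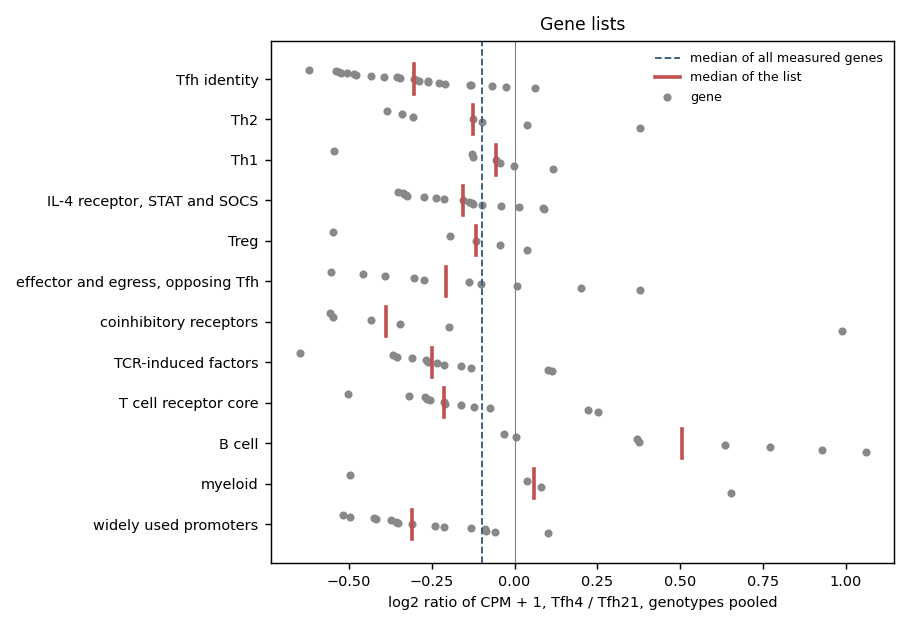
Log2 ratio of CPM + 1 in Tfh4 over Tfh21, genotypes pooled, for each measured gene (grey points) of 12 lists, with the median of each list (red bar) and of all 11718 measured genes (dashed, -0.10). The B cell list stood at 0.50, the coinhibitory list at -0.39 with Havcr2 as its only member above 0, and the Tfh list at -0.30. Widely used genes stood at -0.31.

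Beside these gene differences, a shift ran through the whole table. Weak peaks took more reads in Tfh4 and strong peaks fewer, in KO and in WT alike. With strength set by the Tfh214 libraries only, the 66400 peaks under 1 CPM gave a ratio of 1.24 (1.31 in KO and 1.18 in WT). The ratio was 1.09 at 2 to 4 CPM, 0.964 at 4 to 8 CPM, 0.840 at 8 to 16 CPM and 0.821 over 64 CPM. Above 16 CPM the kind of peak made little difference, with 0.827 at start sites, 0.801 in introns and 0.806 between genes. Under 4 CPM, start sites gave 1.03 (0.951 in KO and 1.1 in WT) while introns were at 1.17 and intergenic peaks at 1.17. The median log2 ratio of the 9889 peaks with at least 40 reads in the higher population was -0.28, with -0.30 in KO and -0.23 in WT.

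**Figure D4:**
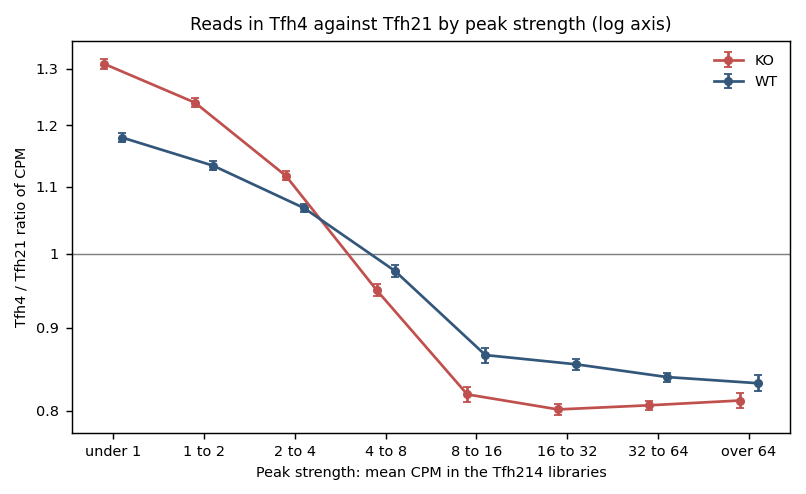
Ratio of CPM in Tfh4 over Tfh21 (log axis) for peaks grouped by their mean CPM in the Tfh214 libraries, for KO (red) and WT (blue), with exact binomial 95% intervals. Both genotypes crossed 1 between 2 and 8 CPM, and above 8 CPM all values lay between 0.802 and 0.866.

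Gene sums differed with how the reads of a gene were spread over its peaks. Of the 11718 measured genes, 487 were at least 1.5-fold higher in Tfh4 with the same direction in both genotypes (4.16%) and 234 lower (2.0%). With median-of-ratios scaling the counts were 764 (6.52%) and 87 (0.742%). Among 6786 genes whose strongest peak held 50 to 100% of their reads, 190 were lower and 30 higher, and their median log2 ratio was -0.18. Among 1963 genes whose strongest peak held 10 to 25%, 5 were lower and 237 higher, and their median was 0.16. Read by the strongest peak of each gene alone, 6 genes were higher and 460 lower.

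Among genes named by size, Spdye4a led the higher side. It held 24 and 24 reads in KO and WT Tfh4 against 2 and 7 in KO and WT Tfh21, a ratio of 4.44 (2.15 to 10.3). Npsr1, a neuropeptide receptor gene, gave 3.70 (1.77 to 8.67), and Gulp1, an engulfment adaptor gene, gave 3.54 (1.86 to 7.29). Gm16982, Tmem51, Akap2, the noncoding RNA gene Bloodlinc and 2610316D01Rik lay between 2.88 and 3.88. On the lower side, Arhgap4, a haematopoietic GTPase regulator gene, held 11 and 13 reads in KO and WT Tfh4 against 24 and 22 in KO and WT Tfh21, a ratio of 0.434 (0.254 to 0.726). Gimap6, a GTPase gene of lymphocytes, stood at 0.499 (0.314 to 0.783), and Pim2, a survival kinase gene, at 0.502 (0.332 to 0.750). Bcl9l, a coactivator gene of Wnt signalling, stood at 0.497 (0.337 to 0.726). Gm11346, Enox2, Chn1os3 and Zmat2 lay between 0.370 and 0.458. All were chosen for their size, which inflates a ratio.

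At the level of single peaks few differences passed 2-fold. With the same direction in both genotypes, 3 of 9889 peaks were at least 2-fold higher in Tfh4 (0.0303%) and 29 lower (0.293%). With median-of-ratios scaling these counts were 7 (0.0708%) and 5 (0.0506%), so the excess of lower peaks was not seen with that scaling. The start site of Ranbp17 (chr11:33412835-33413999) was higher, with 24 and 16 reads in KO and WT Tfh4 against 6 and 8 in KO and WT Tfh21, a ratio of 2.38 (1.27 to 4.73). An intergenic peak at chr15:100568470-100569991 held 22 and 20 reads in KO and WT Tfh4 against 9 and 5 in KO and WT Tfh21, a ratio of 2.50 (1.34 to 4.95). Peaks in Man1a, Airn, Ddx27 and Kank3 and an intergenic one on chromosome 2 were named as higher too, at 1.56 to 1.99. The pooled interval of Kank3 included 1 (0.931 to 2.68), and in all of these peaks the interval within each genotype included 1. Lower were the start sites of Daglb (0.380, 0.215 to 0.650), of Enox2 (0.408, 0.242 to 0.671; the sequence shown above) and of Pim2 (0.426, 0.243 to 0.728). The Enox2 start (chrX:46641005-46641723) held 15 and 10 reads in KO and WT Tfh4 against 30 and 21 in KO and WT Tfh21. An intron 29 peak of Ttll5 gave 0.377 (0.207 to 0.662), and peaks in Chn1os3, Cep170b, Tspan14, Zmat2, Lrch3 and Nav2 gave 0.425 to 0.447.

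**Figure D5:**
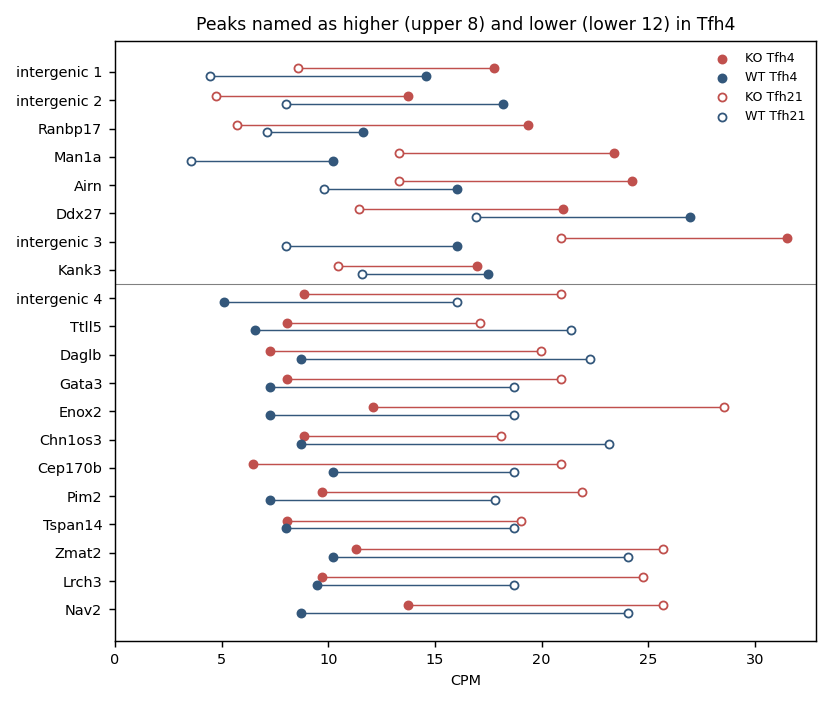
CPM in KO (red) and WT (blue) libraries at the 8 peaks named as higher and the 12 named as lower in Tfh4; filled points are Tfh4, open points are Tfh21, and a line joins the libraries of a genotype. By the rule of choice, every line runs the same way in both genotypes.

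A model was fitted to all 6 libraries, with population and genotype as terms, by limma on log2(CPM + 1) with Benjamini-Hochberg adjustment. It called 118 of 8986 peaks lower in Tfh4 (1.31%) and 0 higher (0%), against a median of -0.27 over the peaks tested. All 118 were lower in both KO and WT, and 66.1% of them were start sites, against 75.9% of the peaks tested. With median-of-ratios scaling 0 were called lower (0%) and 0 higher (0%), where 303 had an unadjusted p under 0.05. No peak was thus called beyond the shift of strong peaks. The calls rested on single libraries and on the variance trend: 0 peaks were called without WT Tfh21, 2 without KO Tfh21 and 0 without the trend, against 199 without WT Tfh4, 233 without KO Tfh4 and 633 without either Tfh214 library. Over 10825 genes the model called 0 higher (0%) and 0 lower (0%), where 1377 had an unadjusted p under 0.05, although 121 were called without WT Tfh4. By edgeR 0 peaks and 1 gene were called and by DESeq2 0 and 0, with 154 peaks and 1158 genes (edgeR) and 0 peaks and 109 genes (DESeq2) at an unadjusted p under 0.05. The p-values rest on how far single libraries depart from additive effects of population and genotype, with 2 residual degrees of freedom, and not on spread over animals.

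The start site of Cpeb2, which encodes a regulator of mRNA translation, led the called peaks (chr5:43623828-43626580). It held 123 and 125 reads in KO and WT Tfh4 against 159 and 162 in KO and WT Tfh21, a log2 difference of -0.63 ± 0.10 (SE; limma adjusted p = 0.00029, and 0.00013 with 4 libraries to 0.9997 with median-of-ratios scaling). The start site of Atp5j, a subunit gene of ATP synthase, followed at -0.62 ± 0.12 (limma adjusted p = 0.00794). Others among the peaks with the smallest p were the start sites of Tmem191c, 1700031P21Rik, Klhl2 and Pmaip1 and 3 intergenic peaks, at log2 differences of -0.95 to -0.48. Of the 84 tested peaks in listed genes 4 were called, all of them start sites. Maf was at -0.50 ± 0.13 (limma adjusted p = 0.0422) on 78 and 74 reads in KO and WT Tfh4 against 94 and 86 in KO and WT Tfh21. Btla gave limma adjusted p = 0.0407, Ywhaz 0.0436 and Stat3 0.0451.

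Apart from the shift, no shared ranking of the peaks by KO and WT was detectable at this depth. Over the 8986 peaks of the model, the KO and the WT log2 ratio, which share no library, had a Pearson r of -0.02 and a Spearman rho of -0.03 across peaks. This is a description across peaks, which are not independent replicates. The same sign was seen at 73.7% of them as deposited and at 49.0% with median-of-ratios scaling. Within groups of peak strength the Pearson r ran from -0.08 to 0.07. The SD of the log2 ratio over the 8986 peaks was 0.27 in KO and 0.30 in WT. By peak strength it fell from 1.15 in KO and 1.03 in WT under 1 CPM to 0.17 and 0.18 over 64 CPM. Counting error lowers such a correlation, and its part was not tested.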

How the data were processed

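ATAC-seq of 6 libraries was grouped by genotype and population from the labels. The authors deposited CPM per peak on a common list in mm9; genes, sections and distances are per the file headers, where the field headed as gene ID holds the symbol. The submitters' processing notes name Bowtie 1.3.0, MACS2 2.0 and HOMER but give no roles. Treatment of duplicates, the transposase shift and pooling for peak calls were not given in the sources used here.

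Dividing by the value of 1 read recovered whole reads (99.9989% or more within 0.02). Reads were summed per gene and population, and exact binomial 95% intervals reflect counting only, as PCR copies may repeat a molecule. limma 3.58.1 fitted population and genotype to log2(CPM + 1) over all 6 libraries, with a variance trend, a mean of at least 20 reads, 2 residual degrees of freedom and a threshold of 0.05. Alternatives were edgeR 4.0.16 and DESeq2 1.42.0 on recovered reads and median-of-ratios factors, taken from features with a mean of at least 20 reads. These factors were taken over peaks for values of single peaks and over genes for sums of the peaks of a gene, and they differ. R 4.3.3 and Python 3.11.15 were used. Only the limma model was tested on simulated data, in which libraries varied by counting error alone.

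The text names 16 set genes, the 12 peaks and 8 genes with the most extreme ratios past 1.5-fold in each genotype under both scalings, the 10 peaks of smallest p and up to 4 members of each list. Members, lists and tests were chosen with earlier results of these data known. Of 19109 genes 14340 matched the RefSeq promoter table (GRCm38.p6) by symbol. Cd79a, Ms4a1, Cd8a, Ncr1, Il13ra1, Il9, Fcgr3 and Tyrobp were not analysed here, and 2 named items are not reported.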

Additional observations from a re-analysis of the deposited data

Results flagged for a closer look

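Among the genes whose ratios are given, 7 had KO and WT ratios of Tfh4 over Tfh21 on opposite sides of 1, each by at least 0.1 on the log2(CPM + 1) scale, and the difference between genotypes was not tested in any of them. Il13 stood at a log2 ratio of -1.18 in KO (4 reads in Tfh4, 9 in Tfh21) and 0.51 in WT (11 and 6), a KO minus WT difference of -1.68. Il5 stood at -0.15 in KO (2 and 2 reads) and 0.89 in WT (8 and 3), a difference of -1.04. Stat4, which encodes the factor activated by IL-12, stood at -0.54 in KO (154 and 190 reads) and 0.25 in WT (227 and 156), a difference of -0.79. Icos stood at -0.15 in KO and 0.29 in WT (-0.43), and Bcl6 at -0.30 in KO and 0.13 in WT (-0.43). Itgam, a myeloid integrin gene, ran the other way, at 0.38 in KO and -0.21 in WT (0.60). Pax5 stood at -0.40 in KO (66 and 74 reads) and 0.27 in WT (127 and 86), a difference of -0.66. At the start site of Ifng alone, KO stood at 1.36 (8 and 2 reads) and WT at -1.37 (2 and 6), a difference of 2.73. With 1 library per genotype and population, genotype cannot be told apart from library here.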

How the results depend on the processing

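Il4 kept its direction under each alternative tried: 3.59 (1.16 to 14.8) with median-of-ratios scaling, and with intervals that included 1, 2.55 in KO alone, 4.09 in WT alone and 3.33 in its highest peak. Il21 kept its direction as well, and its interval reached 1 at 0.689 with median-of-ratios scaling, 0.649 in KO alone, 0.631 in WT alone and 0.832 in its highest peak. Outside start sites, Ifng (0.557) had an interval that included 1 with median-of-ratios factors taken over genes, while Il21, Tbx21 and Prdm1 did not. The factors taken over peaks, which raise the ratios further, were not applied to these sums. The Tfh median outside start sites was -0.24 with the factors taken over peaks, where all such peaks stood at 0.01. At 16 CPM or more it was -0.56 as deposited. With the highest peak only, Tbx21 turned to 1.54 and Itgam to 0.227. With median-of-ratios scaling, 18 of the other values for named genes kept their side of 1 but lost an interval clear of it, and 1 gained such an interval. Another 2 crossed 1, with intervals that included 1 under both scalings. For 55, neither the side nor whether the interval was clear of 1 changed.

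Counts by fold moved widely. Peaks at 2-fold, higher and lower, numbered 7 and 5 with median-of-ratios scaling, 5 and 184 in KO alone, 16 and 167 in WT alone, 10 and 3 with the trend by level removed, 459 and 314 at 20 reads and 0 and 0 at 80 reads, and 2 and 13 past the fold in each genotype. Genes at 1.5-fold numbered 764 and 87 with median-of-ratios scaling, 896 and 939 in KO alone, 1013 and 408 at 20 reads, 139 and 88 at 80 reads, 216 and 64 past the fold in each genotype, 6 and 460 by the highest peak, and 692 and 510 in WT alone.

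The 118 called peaks became 77 at a mean of 10 reads, 8 with no filter (1 higher), 595 with 4 libraries only, and 0 without the variance trend, with median-of-ratios scaling (with or without the trend), with quantile normalization, without the genotype term, by edgeR and by DESeq2. Leaving out 1 library gave 0 (without WT Tfh21) to 633 peaks (without either Tfh214 library), with 2 without KO Tfh21, 199 without WT Tfh4 and 233 without KO Tfh4; a group left with 1 library is assumed to vary like the others. Called genes numbered 1 with a pseudocount of 5, without a filter or by edgeR, 3 without the genotype term, and 0 to 121 on leaving out 1 library (121 without WT Tfh4). Depth limits Il4, Il13 and Il5 most. The labels number no replicates, so no replicate number pairs libraries. Populations are matched by genotype, which is a term in the model.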

Other observations

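Strong peaks (at least 16 CPM in the Tfh214 libraries) were lower in Tfh4 on every autosome, with pooled ratios of Tfh4 over Tfh21 from 0.808 on chromosome 16 to 0.844 on chromosome 11. Chromosome 11, which carries Il4 and Tbx21, stood at 0.778 (0.765 to 0.792) in KO and 0.915 (0.899 to 0.931) in WT on 644 peaks. Chromosome 19 stood at 0.779 (0.759 to 0.799) in KO and 0.891 (0.868 to 0.915) in WT on 276 peaks. On chromosome 6 the genotypes were close, at 0.820 in KO and 0.821 in WT. The difference between genotypes was not tested. Intervals are exact binomial and cover counting error only.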
